A study of Homo sapiens with 4 samples.

Results

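The deposited splicing tables held 471 alternative splicing events from RKO cells, and 207 of them were skipped exons, mutually exclusive exons, alternative 3' splice sites or alternative 5' splice sites. All events of those 4 classes were taken, whatever their p-value, and the 264 retained introns were set aside. RKO is an established human colorectal cancer line. The cells were wild type (WT) or overexpressed ZCCHC7 (OE), a zinc-knuckle subunit of the TRAMP complex, which feeds nuclear RNAs to the exosome for trimming or decay. The labels used here name no empty vector, time or agent. Each genotype gave 1 input library and 1 immunoprecipitate, 4 libraries in all with no replicates, and the labels disagreed on whether the antibody was against ZCCHC7, SRSF1 or m6A. By its title, the study concerns the mechanism and targets of ZCCHC7 in colorectal cancer.

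Exons are joined at a 5' splice site, which ends the upstream exon, and a 3' splice site, which opens the downstream one. A skipped exon is kept or left out as a whole, mutually exclusive exons replace each other, and a shifted 3' or 5' site lengthens or shortens an exon at one end. A stretch whose length is a multiple of 3 keeps the reading frame of a coding sequence, whereas other lengths shift it and can bring in an early stop codon, which marks an RNA for nonsense-mediated decay.

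The alternative 5' sites of RPL12, a protein of the large ribosomal subunit, and RHOT2, a GTPase of the mitochondrial outer membrane, are shown as examples of what an event records. They are given because RefSeq sequence on GRCh38.p14 covered the nearer of their alternative sites. Each line runs from 15 bases inside the exon to 15 bases that start the intron, and the capitals mark the GT that opens the intron when the shorter exon is used.
RPL12 (chr9:127451266-127451295, minus strand): acgagatcaaagtcgGTgcgtgctctggtt
RHOT2 (chr16:668140-668169, plus strand): aggcttgaggaccagGTcggggccgggttc
Use of the farther site kept 231 more bases of RPL12 in the exon and 82 more of RHOT2. For RPL12 the longer form had 8 of 10 counts in the second OE value, 2 of 2 in the first WT value and 0 of 3 in the second WT value. RHOT2 had 1 count of the longer form and 1 of the shorter in OE, and 3 and 0 in WT, all in the first values. Neither event had enough counts for a test.

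The events fell into 101 skipped exons in 80 genes, 15 pairs of mutually exclusive exons in 15 genes, 57 alternative 3' sites in 54 genes and 34 alternative 5' sites in 34 genes. Together they lay in 161 genes, of which 129 had 1 event and 32 had several. EEF1D, a subunit of the translation elongation factor that recharges eEF1A, had 5 events. SPG7, a mitochondrial protease, and SPHK1, which makes sphingosine-1-phosphate, had 4 each. Protein-coding genes held 202 of the events. None of the 14 symbols listed for the TRAMP complex, the nuclear exosome and its cofactors, ZCCHC7 among them, had a member event. The overexpression could therefore not be checked here. No gene of the marker lists for colorectal epithelium, fibroblasts, blood cells or endothelium had a member event either.

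Each count cell held 2 comma-joined values per genotype, called the first and second value here. No source used here says which is the input and which the immunoprecipitate. Values were set first against first and second against second, which assumes the same order in both genotypes. An inclusion count belongs to the form that holds the segment: the exon for a skipped exon, the longer form for an alternative site, and, for mutually exclusive exons, the upstream exon of the pair. A skipping count belongs to the other form.

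Counts were few. The 207 events held 1088 counts in OE and 2129 in WT. The median event had 6 counts over both genotypes, and 132 events had fewer than 10. A single 3' site, that of PTMS, held 885 of all 3217 counts. The minimum of 10 counts in each genotype was met by 8 skipped exons, 5 alternative 3' sites, 2 alternative 5' sites and 0 pairs of mutually exclusive exons. All intervals below are 95% intervals of counting error alone, since reads without molecular identifiers are not independent molecules.

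The segments that the events add or remove differed in length by class. Skipped exons had a median length of 196 bases (20 to 3807) and mutually exclusive exons of 187 bases (54 to 5262). The stretch between alternative 3' sites had a median of 77 bases (3 to 2765), and that between alternative 5' sites 156 bases (3 to 949). Fewer than 100 bases were found in 33 of 57 stretches at 3' sites against 11 of 34 at 5' sites and 17 of 101 skipped exons.

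**Figure D1:**
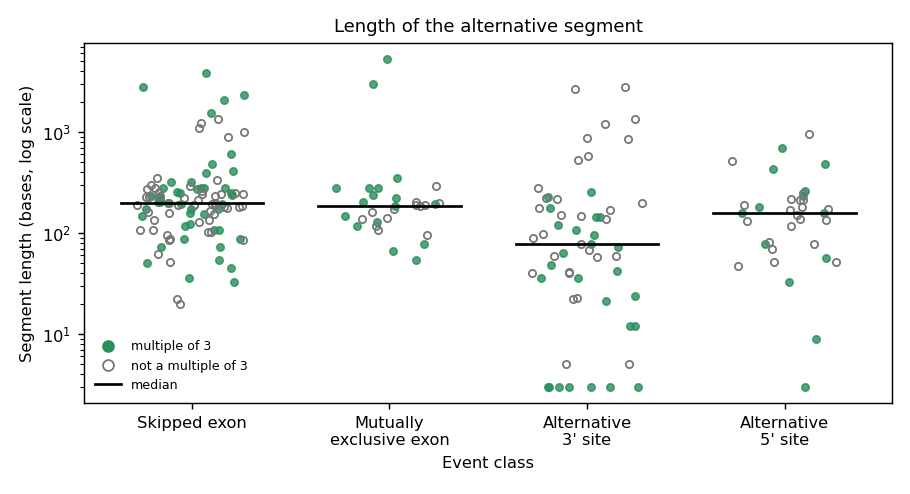
Length of the alternative segment in bases on a log scale, 1 point per segment (both exons of a mutually exclusive pair are drawn), by event class. Filled points are multiples of 3, open points are not, and lines are medians, which lie at 196, 187, 77 and 156 bases from left to right; 7 of the points at 3' sites and 1 at 5' sites lie at 3 bases.

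The length was a multiple of 3 in 47 of 101 skipped exons (46.5%, interval 36.5% to 56.7%), 17 of 30 mutually exclusive exons (56.7%, 37.4% to 74.5%), 26 of 57 stretches at 3' sites (45.6%, 32.4% to 59.3%) and 13 of 34 at 5' sites (38.2%, 22.2% to 56.4%). In the deposited annotation, 40.9% of 173970 wholly coding internal exons were multiples of 3, and 51.6% of the 18169 of them that an annotated junction skips. Annotated alternative pairs gave 46.2% at 3' sites and 39.6% at 5' sites. These annotated internal exons were all wholly coding, whereas the skipped exons counted here lay in any place, and no annotated set was built for mutually exclusive exons.

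Stretches of exactly 3 bases, which add or remove a single amino acid where they are coding, made up 12.5% of the 56 distinct stretches at 3' sites and 2.94% of the 34 at 5' sites. In the annotation, the same lengths made up 11.5% of 11056 pairs at 3' sites and 1.16% of 6279 at 5' sites.

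Most segments touched coding sequence. Of 222 segments, 118 (53.2%) lay wholly in the coding sequence of at least 1 transcript, 61 were partly coding, 23 lay in untranslated regions and 20 in exons of noncoding transcripts. Mutually exclusive exons were wholly coding in 27 of 30 cases, skipped exons in 49 of 101, 3' stretches in 29 of 57 and 5' stretches in 13 of 34. Untranslated regions held 17 skipped exons, 5 stretches at 3' sites and 1 at 5' sites. A start codon lay in 24 of the 222 segments and a stop codon in 50.

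**Figure D2:**
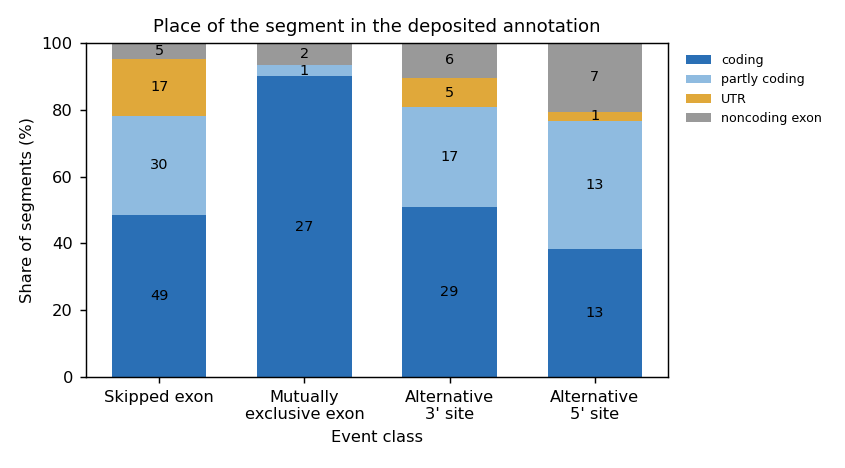
Share of segments in percent by their place in the deposited annotation, by event class, with the number of segments written in each block. Wholly coding segments number 49, 27, 29 and 13 from left to right, and the alternative 5' sites have 7 segments in noncoding exons.

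The share in frame differed by place. Wholly coding segments were multiples of 3 in 69 of 118 cases (58.5%), partly coding ones in 20 of 61 (32.8%) and untranslated ones in 8 of 23 (34.8%). Among distinct wholly coding segments the share was 54.2% for skipped exons, 63.0% for mutually exclusive exons, 64.3% for 3' stretches and 46.2% for 5' stretches. These are descriptions of the annotation, with no test.

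Both forms had an annotated transcript in 181 of 207 events. Among the exceptions were 20 skipped exons whose skipping junction matched no transcript. Both sites of all 57 alternative 3' events and all 34 alternative 5' events were annotated. The classes differed in which form had a protein-coding transcript. Only the shorter form did in 18 of 34 alternative 5' sites and 19 of 57 alternative 3' sites, whereas only the longer form did in 6 and 4. For skipped exons, only the inclusion form had one in 27 events and only the skipping form in 18. Transcripts annotated as targets of nonsense-mediated decay carried the inclusion form in 70 events and the skipping form in 67. The alternative stretch lay inside a longer annotated exon in 26 events at 3' sites and 19 at 5' sites, where reads from such longer exons can count as inclusion; their part in the counts was not tested.

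Summed inclusion differed between the values of one genotype as well as between genotypes. For skipped exons, inclusion was 58.3% (53.9% to 62.7%, 504 counts) in the first WT value and 34.0% (26.6% to 42.0%, 156 counts) in the second. In OE it was 64.7% (57.7% to 71.3%, 204 counts) in the first and 73.1% (66.6% to 79.0%, 212 counts) in the second. The intervals of the first values of WT and OE overlapped, while those of the second values did not. DEAF1 alone gave 23.1% of the second WT counts and 14.2% of the second OE counts. Without DEAF1, inclusion in these values was 44.2% and 84.6%. The sums of a class cover different events in each value. Counts were present for 40 skipped exons in the second WT value and 55 in the second OE value. In the 30 counted in both, inclusion was higher in OE in 15, lower in 7 and equal in 8 (median difference 1.67 points). In the 51 counted in both first values it was higher in 28, lower in 16 and equal in 7 (median 15.4 points).

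At alternative 3' sites the longer form had 8.27% (6.63% to 10.2%) of 991 counts in the first WT value and 13.3% (9.77% to 17.5%) of 324 in the first OE value. PTMS supplied 66.3% and 65.7% of those counts, and without it the shares were 23.7% and 35.1%. In the second values the longer form had 19.4% (10.8% to 30.9%) of 67 counts in WT and 75.0% (65.1% to 83.3%) of 96 in OE. At alternative 5' sites the longer form had 71.3% (65.6% to 76.6%) of 272 counts in the first WT value and 81.0% (70.6% to 89.0%) of 79 in the first OE value. The second values stood at 54.0% (39.3% to 68.2%) of 50 counts in WT and 80.4% (70.9% to 88.0%) of 92 in OE. FBL held 41.5% of the first WT counts; without it that share was 52.8%.

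Mutually exclusive exons had 72.2% (58.4% to 83.5%) of 54 counts on the inclusion exon in the first WT value and 31.4% (16.9% to 49.3%) of 35 in the second. In OE they had 33.3% (13.3% to 59.0%) of 18 in the first value and 36.5% (24.7% to 49.6%) of 63 in the second. CROCC gave 44.4% of the first OE counts, and without it that share was 60%. BTN2A2 gave 20.0% of the second WT counts, and without it that share was 17.9%.

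**Figure D3:**
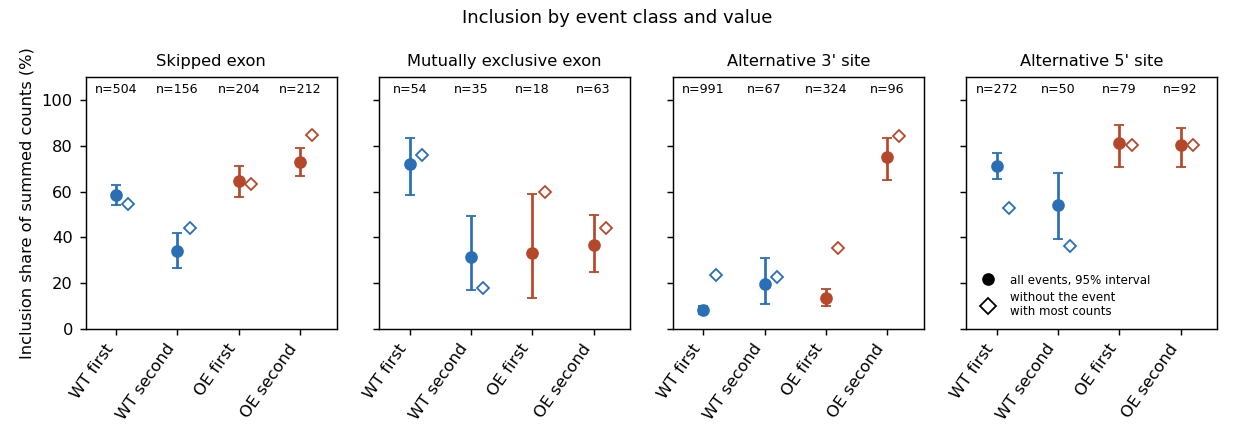
Inclusion share of summed counts in percent for each class in the first and second values of WT (blue) and OE (red), with 95% Clopper-Pearson intervals and the number of counts. Open diamonds leave out the event with the most counts in that value; at alternative 3' sites the second OE value stands at 75.0% and the other values between 8.27% and 19.4%.

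The inclusion length written in the tables was the segment plus 149 bases in all 471 events. By that length, reads on the body of the segment count as inclusion, so a longer segment can collect more counts at the same use. For skipped exons, dividing counts by these lengths gave 44.4% and 17.1% in the first and second WT values and 47.5% and 35.6% in OE. The 19 skipped exons of at least 300 bases had 107 inclusion counts of 112 (95.5%) in the second OE value and 2 of 17 (11.8%) in the first. In WT the same exons had 23 of 35 (65.7%) in the second value and 16 of 48 (33.3%) in the first. MPRIP alone gave 30 of the 112 second OE counts. RTN3 entered with 2 overlapping exons, which can share reads. Examples chosen after their values were seen were the 1358-base exon of ACIN1, with 12 inclusion and 0 skipping counts in the second OE value against 0 and 1 in the first, and the 2331-base exon of RTN3, with 8 and 0 against 0 and 4.

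Many events had no value in which both genotypes were counted. OE and WT shared the first value alone in 94 events, the second alone in 60, both in 5 and neither in 48. In 45 of those 48, the counts were all in the second value of OE and the first value of WT, and in the other 3 the reverse. This pattern was found in 18 skipped exons, 2 mutually exclusive pairs, 15 alternative 3' sites and 10 alternative 5' sites. In such events genotype and value cannot be told apart.

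**Figure D4:**
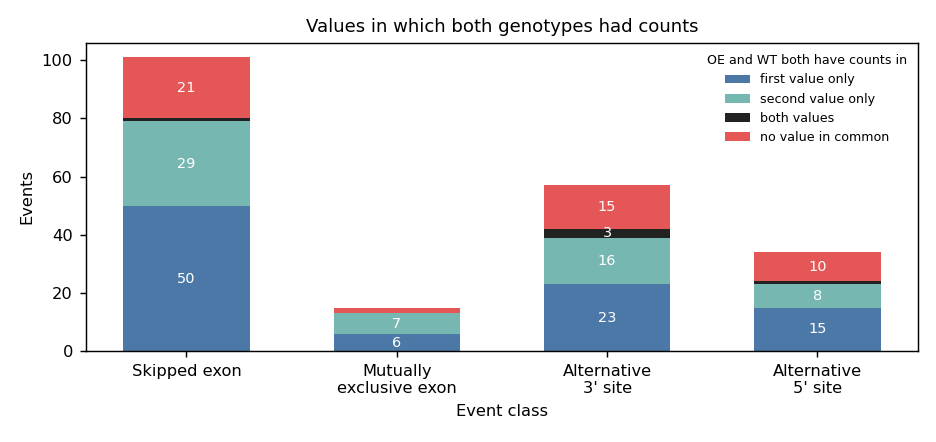
Number of events in each class by the value in which both OE and WT had counts: the first value only, the second only, both, or none. No value was shared in 21 of 101 skipped exons, 2 of 15 mutually exclusive pairs, 15 of 57 alternative 3' sites and 10 of 34 alternative 5' sites.

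The inclusion difference in the authors' deposited table, OE minus WT, was positive in 151 events and negative in 56. It was exactly 1 in 76 events and exactly -1 in 24. These 100 full differences rested on a median of 4 counts per event and at most 15, and 42 of them came from events with no shared value. Where a value was shared, the authors' difference was positive in 107 events and negative in 52. Within the first values, 99 events had counts in both genotypes, and inclusion was higher in OE in 53, lower in 30 and equal in 16. Within the second values the numbers were 36, 13 and 16 of 65. These splits were counted for the 4 classes alone and not over the whole series, so whether they are particular to these classes was not tested. The authors' deposited p-value was 1 for 204 of the 207 events.

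The exact test of OE against WT, with the first and second values as separate strata, compares these libraries and not the conditions. It called 0 of the 15 member events tested, at adjusted p under 0.05 over all classes, where 1 of 32 events of the series was called (3.12%). Unadjusted p was under 0.05 in 3 of the 15 (FBL, DVL3 and SMTN) and in 4 of all 32 events tested. Of the 15 members, 8 had enough counts in both forms to reach that level at all. With a genotype's values added, Fisher's exact test called 1 member, MPRIP, and 28.1% of all events. With the opposite order of values, the stratified test called 2, MPRIP and FBL, and 34.4% of all. A minimum of 5 counts let it call 1 of 39 members, RPS9, and 4.44% of all 90 events tested. A minimum of 20 let it call 1 of 4, FBL, and 16.7% of all 6.

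**Figure D5:**
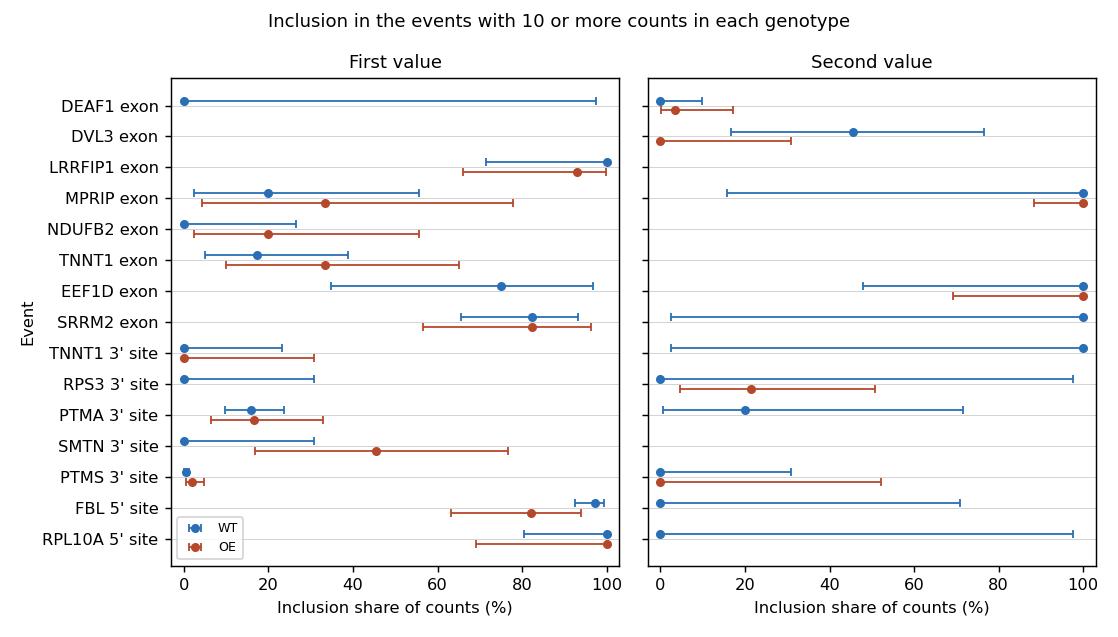
Inclusion share in percent for the 15 events with at least 10 counts in each genotype, in the first value (left) and the second value (right), WT in blue and OE in red, with 95% Clopper-Pearson intervals. A value with no counts has no point; for FBL the first OE value lies at 82.1% and the first WT value at 97.3%.

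FBL encodes fibrillarin, the methyltransferase of box C/D small nucleolar RNPs that modifies ribosomal RNA. Its alternative 5' sites lie 3 bases apart (ENSG00000105202, chromosome 19, 39840617 to 39840619, minus strand, coding). The longer form had 23 of 28 counts in the first OE value, 110 of 113 in the first WT value and 0 of 3 in the second WT value, with no count in the second OE value. Inclusion was 82.1% (63.1% to 93.9%) in OE and 97.3% (92.4% to 99.4%) in WT within the first values. The difference was -15.2 points (Newcombe interval -33.0 to -4.10, exact p = 0.00807, adjusted p = 0.129 over 32 events). With at least 20 counts per genotype the adjusted p of the exact test was 0.0484 over 6 events. With the opposite order, which sets the first OE value against the 3 second WT counts, the direction turned (exact test, adjusted p = 0.0362).

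PTMA, which encodes prothymosin alpha, an acidic nuclear protein, also had alternative sites 3 bases apart, at a 3' site (ENSG00000187514, chromosome 2, 231711887 to 231711889, coding). The longer form had 6 of 36 counts in the first OE value (16.7%), 19 of 120 in the first WT value (15.8%) and 1 of 5 in the second WT value. The first values differed by 0.83 points (-10.8 to 17.0; exact p = 1). The other 3-base 3' sites were those of PES1, SRRT, PPP1R12C, KLHDC4, AFDN and SEMA4C, and all their counts were in the first values. PES1, a factor of ribosomal subunit assembly, had 6 of 6 counts on the longer form in OE and 21 of 23 in WT. SRRT, which links the cap-binding complex to RNA processing, had 3 of 6 in OE and 3 of 9 in WT. PPP1R12C, a myosin phosphatase subunit, had 0 of 4 and 7 of 17, and KLHDC4 0 of 2 and 9 of 11. Over all 7 such 3' sites, the longer form had 17 of 58 first OE counts and 61 of 184 first WT counts.

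PTMS encodes parathymosin, a relative of prothymosin alpha. Its 3' sites lie 77 bases apart (ENSG00000159335, chromosome 12, 6769844 to 6769920, coding), a length that is no multiple of 3. The longer form had 4 of 213 counts in the first OE value and 3 of 657 in the first WT value, and 0 of 5 and 0 of 10 in the second values. The shorter form thus made up nearly all counts in every value. The first values differed by 1.42 points (-0.021 to 4.29), with a stratified exact p of 0.0651 and an adjusted p of 0.417. PTMS was the only event with at least 10 counts in both values of WT, where first and second did not differ beyond counting error (0.457% against 0%, Fisher's exact p = 1).

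Ribosomal protein genes had 17 member events in 13 genes, of which 2 were tested and 0 called. Neither had counts that could reach p under 0.05 in the stratified exact test, so the 0 calls carry no information on these genes. RPS3, a protein of the small subunit, had a 3' stretch of 48 bases with 3 of 14 counts on the longer form in the second OE value, 0 of 10 in the first WT value and 0 of 1 in the second. RPL10A, of the large subunit, had a 5' stretch of 258 bases whose longer form belongs to a noncoding transcript. It had 10 of 10 counts in the first OE value and 17 of 17 in the first WT value, and 0 of 1 in the second WT value.

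RPS3 also had a 5' stretch of 47 bases that differed within WT. The longer form had 2 of 7 counts in the first WT value and 14 of 14 in the second (Fisher's exact p = 0.00103, adjusted p = 0.00671 over 13 events with at least 5 counts in each value, of which 38.5% were called). In OE it had 6 of 6, all in the second value.

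RPS9, another small-subunit protein, was the event with the smallest p in the authors' deposited table (p = 1.59e-09, FDR 9.06e-08, inclusion difference 0.986). Its 3' sites lie 845 bases apart (ENSG00000170889, chromosome 19, 54206553 to 54207397, partly coding), and the stretch lies inside a longer annotated exon. The longer form had 2 of 2 and 4 of 4 counts in the OE values and 1 of 6 and 0 of 7 in the WT values. Its share was thus higher in OE within each value. OE had 6 counts in all, under the minimum of 10. At a minimum of 5 counts the stratified exact test gave p = 0.000325 and an adjusted p of 0.0146 over 90 events, of which 4.44% were called.

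Of 22 listed actin, myosin and troponin genes, 8 had member events, 11 in all, with 5 tested and 0 called. Among those tested, the LRRFIP1 exon and the TNNT1 3' stretch had counts that could not reach p under 0.05. MPRIP encodes a protein that ties myosin phosphatase to actin filaments. Its exon of 3807 bases (ENSG00000133030, chromosome 17, 17164109 to 17167915, coding) had 2 of 6 inclusion counts in the first OE value, 30 of 30 in the second, 2 of 10 in the first WT value and 2 of 2 in the second. Inclusion was low in both first values and complete in both second values. The stratified exact test gave p = 0.604, whereas the added counts, 32 of 36 against 4 of 12, gave a Fisher's exact adjusted p of 0.00296. Within OE the first and second values differed (Fisher's exact p = 0.000255, adjusted p = 0.000891 over 7 events with at least 5 counts in each value, 57.1% of them called).

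SMTN encodes smoothelin, an actin-binding protein of smooth muscle. A 59-base 3' stretch in its untranslated region (ENSG00000183963, chromosome 22, 31088454 to 31088512) had 5 of 11 counts on the longer form in OE and 0 of 10 in WT, all in the first values. The difference was 45.5 points (8.64 to 72.0; exact p = 0.0351, adjusted p = 0.281). A second SMTN event, with sites 881 bases apart, had p = 0.0126 and FDR 0.359 in the authors' deposited table. Its longer form had 2 of 2 and 1 of 1 counts in the OE values and 0 of 2 and 4 of 4 in the WT values.

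TNNT1, the troponin T of slow skeletal muscle, had a 33-base coding exon with 4 of 12 inclusion counts in OE and 4 of 23 in WT, in the first values (33.3% and 17.4%, difference 15.9 points, -11.8 to 45.4; exact p = 0.402). Its 137-base 3' stretch, whose longer form is annotated as a decay target, had 0 of 10 counts in the first OE value, 0 of 14 in the first WT value and 1 of 1 in the second. LRRFIP1, which binds RNA and the actin regulator flightless, had an 87-base exon with 13 of 14 inclusion counts in OE and 11 of 11 in WT (exact p = 1). Its skipping junction matched no annotated transcript.

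For 3 tested exons, those of DEAF1, DVL3 and NDUFB2, the only annotated transcript with the exon was a decay target. DVL3 carries Wnt signals from the Frizzled receptors and was the only one of 27 listed Wnt genes with a member event. Its 197-base exon (ENSG00000161202, chromosome 3, 184162605 to 184162801) had 0 of 10 inclusion counts in OE (up to 30.8%) and 5 of 11 in WT (45.5%, 16.7% to 76.6%), all in the second values. The difference was -45.5 points (-72.0 to -8.64; exact p = 0.0351, adjusted p = 0.281). The 246-base exon of DEAF1, a transcription factor, was nearly always skipped, with 1 of 30 inclusion counts in OE and 0 of 36 in WT in the second values (3.33 points, -6.69 to 16.7; exact p = 0.455). The 194-base exon of NDUFB2, a subunit of respiratory complex I, had 2 of 10 in OE and 0 of 12 in WT in the first values (20.0 points, -8.17 to 51.0; exact p = 0.195). With so few inclusion counts, the exact p of DEAF1 and of NDUFB2 was the smallest that could be reached.

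Of 33 listed splicing regulators, SRRM2 and RBM39 had member events. SRRM2, a scaffold of nuclear speckles, had a 273-base exon with 14 of 17 inclusion counts in OE and 28 of 34 in WT in the first values, 82.4% in both. The interval of the difference ran from -25.2 to 19.6 points. RBM39 had 2 events with 1 count each in OE. None of the 12 listed genes whose splicing is known to respond to SRSF1, and none of the 15 listed epithelial and mesenchymal exon genes, had a member event. HNRNPA2B1 encodes an hnRNP whose 36-base exon (chromosome 7, 26197831 to 26197866) distinguishes the B1 from the A2 isoform. It had the most counts of the skipped exons, 56 inclusion and 12 skipping in the first WT value, but only 0 and 2 in OE, too few for a test. EEF1D had a 1102-base exon with 10 of 10 inclusion counts in the second OE value, 6 of 8 in the first WT value and 5 of 5 in the second (stratified exact p = 1). These counts allowed no other p, since only the second value was counted in both genotypes and it held no skipping counts.

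At the alternative 5' site of MT1X, a metallothionein, the longer form had 0 of 25 counts in the first WT value, and in OE 0 of 3 in the first value and 4 of 4 in the second. DDX54, an RNA helicase, had 25 of 26 in the first WT value and 4 of 4 in the first OE value.

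None of the 15 pairs of mutually exclusive exons reached the count minimum. In VCAN, which encodes the matrix proteoglycan versican, the exons of 2961 and 5262 bases carry its glycosaminoglycan attachment regions. The 2961-base exon had 1 of 1 count in the first OE value and 4 of 20 in the second, and 0 of 4 in the second WT value. NUDC, a dynein-associated protein, had 17 of 25 counts on its 66-base exon in the first WT value and 0 of 2 in OE. RPLP0, a stalk protein of the large ribosomal subunit, had 3 of 10 on the inclusion exon in OE and 1 of 5 in WT, in the second values.

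CROCC, which forms the ciliary rootlet, had 0 of 8 and 0 of 4 inclusion counts in OE and 1 of 2 in WT. The RPS3 pair had 5 of 5 in the second OE value, 3 of 3 in the first WT value and 1 of 5 in the second. BTN2A2, a butyrophilin, had 0 of 3 in OE and 6 of 7 in WT, in the second values. CNDP2, a peptidase, had 2 of 2 in OE and 4 of 4 in WT in the first values, and 0 of 3 in the second WT value. AL355499.1, TEX264, TFRC, APBB3, GUSB and SNF8 had 4 to 7 counts each, and every one of these 6 genes had a single exon of the pair in OE and the other in WT. In GUSB and SNF8 those counts were in the second OE and first WT values, and in the other 4 in the same value.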

How the data were processed

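RNA from 4 libraries of RKO cells was compared, with 1 library per group, so every p-value compares libraries. Per the file headers, the deposited tables held, for each event, comma-joined inclusion and skipping counts with the lengths of both forms, and the authors' p-value, FDR and inclusion difference. The count columns were used as comma-joined pairs, with OE as the first sample and WT as the second from the name of the comparison. The authors' own inclusion values, in 10 columns, were not used. FastQC 0.11.5 and HOMER were named in the submitters' processing notes; no source used here gives the aligner, splicing caller or genome build. Coordinates are those of the deposited files; 157 of the 161 genes matched a RefSeq symbol on GRCh38.p14, and all 157 overlapped it.

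Segments were placed against the deposited annotation, pooled over a gene's transcripts. Events needed at least 10 counts per genotype. The main test was an exact conditional test of a common odds ratio (two-sided) with the values as strata, with Benjamini-Hochberg adjustment over all 5 event tables; where 1 value held all counts it equals Fisher's exact test. Shares carry Clopper-Pearson intervals and differences Newcombe intervals. Python 3.11.15, SciPy 1.17.1 and pandas 2.3.3 were used, and the tests were tested on simulated data.

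Members and gene lists were chosen with earlier results of these data known. Named events were those tested, those with the authors' p under 0.05, the 5 with the most counts per table, those with 10 counts in both values of a genotype and the mutually exclusive pairs, of which some are not reported here; other names were chosen by list, by a 3-base stretch or as stated.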

Additional observations from a re-analysis of the deposited data

How the results depend on the processing

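Against 0 member events called in the main test, 1 was called with values added, 2 with the opposite order of libraries, 1 at a count minimum of 5 and 1 at a minimum of 20. First values alone called 0 of 10 members, of which 6 could reach unadjusted p under 0.05, and 0 of all 15 events tested. Second values alone called 0 of 2 members, of which 1 could reach that level, and 1 of all 5 events (20%). Adjustment over the 4 classes called 0 of 15 members. First against second value called 1 member event in WT (5 of all 13 tested, 38.5%) and 1 in OE (4 of all 7, 57.1%) at a minimum of 5, and gave no value at 20 in either genotype, or at 10 in OE. With the opposite order, FBL turned direction (adjusted p = 0.0362) and so did PTMA (adjusted p = 1), both by the exact test. MPRIP (values added, opposite order) and FBL (minimum of 20) passed the threshold only in such settings. Dividing counts by form lengths moved skipped exons to 47.5% and 35.6% in the first and second OE values and 44.4% and 17.1% in WT. It moved the second values of 3' sites to 57.4% in OE and 9.52% in WT, and those in OE of 5' sites to 64.5% and of mutually exclusive exons to 50.0%. Leaving out the event with the most counts, chosen after seeing the data, gave for 3' sites 35.1% and 84.1% in the OE values and 23.7% in the first WT value. For 5' sites it gave 52.8% and 36.1% in WT, for mutually exclusive exons 60% in the first OE value, and for the second values of skipped exons 84.6% in OE and 44.2% in WT. Among events with 10 counts per genotype, multiples of 3 made up 62.5% of 8 skipped exons and 100% of 2 alternative 5' sites, and mutually exclusive exons gave no value. The other 48 recomputed summaries kept their call or moved by less than counting error. Each of the 15 tested events was recomputed in several settings. The other 71 of these recomputations kept the call of the event and did not turn its direction, though some had none to keep. With the opposite order, DVL3, NDUFB2, LRRFIP1, the 33-base TNNT1 exon and the 59-base SMTN stretch had no value counted in both genotypes. The TNNT1 3' stretch, RPL10A, SRRM2 and the EEF1D exon had no direction in the main test. The cause of these shifts was not tested. No paired analysis was possible because each group has 1 library.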
